A study of Mus musculus with 12 samples.

Results

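The comparison set mouse bone marrow cells that carried the full CALM-AF10 fusion against cells that carried the empty retroviral vector, MIG. It used 6 of the 12 arrays of the series, 3 per construct, and every probe set that the platform annotation pairs with 1 gene symbol: 21789 of 35556 probe sets, for 19938 genes. The donors were adult C57/BL6/C3H mice given 5-fluorouracil before the marrow was taken, which enriches for stem and progenitor cells. In both groups the cells were pre-stimulated for 48 h, laid over irradiated (40 Gy) GFP+E86 producer cells with cytokines and 5 µg/ml protamine sulfate, sorted on GFP, and read 96 h after transduction. Both vectors therefore put GFP into the cells, and the groups differed by the fusion. The remaining arrays held CALM-AF10 ΔOM-LZ, which lacks the octapeptide motif and leucine zipper of AF10, and the minimal fusion CALM(400-648)+AF10 (677-758), 3 arrays each. The labels call the arrays of a group biological replicates and do not say whether animals were pooled, so every p-value below measures the spread between these cultures.

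CALM-AF10 joins the clathrin assembly protein CALM (gene Picalm) to AF10 (gene Mllt10) and is found in acute leukaemias of myeloid and lymphoid type. The OM-LZ region of AF10 binds DOT1L, the methyltransferase for lysine 79 of histone H3, a mark of transcribed genes. Leukaemias with the fusion are known for high expression of the HOXA genes, which encode homeodomain transcription factors active in blood stem and progenitor cells and switched down as myeloid cells mature.

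The marrow identity of the cultures was clear. In all 6 arrays Mpo, Elane, Prtn3 and Ctsg, proteases and peroxidase of early neutrophil granules, lay between 10.06 and 13.37 on the log2 scale, and the progenitor antigen gene Cd34 lay between 11.62 and 12.43. The mast cell gene Cpa3 (12.42 to 13.24) was among the brightest. The B cell genes Cd79a (4.40 to 4.88) and Pax5 (5.78 to 6.02) were dim. So were the T cell genes Cd3e (5.92 to 6.29) and Cd3g (4.23 to 4.60), the endothelial gene Cdh5 and the adipocyte gene Adipoq. Markers of fibroblasts and the producer line were uneven. Fn1, also expressed by monocytes, ranged from 7.72 to 10.50 and was highest in MIG replicate 2. Pdgfrb was bright in all 6 arrays, at 9.30, 9.51 and 9.17 with MIG and 10.20, 8.71 and 10.18 with CALM-AF10. Its difference was 0.37, with overlap. Col1a1, Col1a2 and Col3a1, on the same list, stayed between 6.71 and 7.48. Over the 29 genes of that list the mean level was 6.42 to 6.75 in MIG and 6.39 to 6.50 in CALM-AF10, 13 genes stood higher and 16 lower, and its part in the results was not tested. Array medians ran from 6.58 to 6.69. In MIG replicate 2 the olfactory receptor genes, which marrow is not expected to express, averaged 4.97 against 4.62 and 4.60 in its partners and 4.58 to 4.82 in the CALM-AF10 arrays. Correlations between arrays averaged 0.985 within MIG, 0.986 within CALM-AF10 and 0.986 between them. The highest was 0.994, between a CALM-AF10 and a MIG array, against at most 0.987 within MIG and 0.989 within CALM-AF10.

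No named gene passed the test between CALM-AF10 and MIG. limma, fitted on all 12 arrays with Benjamini-Hochberg adjustment over 23410 probe sets with a symbol, called 0 (0% of those tested), and the smallest adjusted p was 0.526. Unadjusted p-values under 0.05 were given to 1231 probe sets, 833 higher and 398 lower with CALM-AF10. Counted once per gene, 3.48% of genes were higher and 1.65% lower at that level. The 3 CALM-AF10 values lay entirely above the 3 MIG values in 5.94% of genes and entirely below them in 3.27%. The median difference over genes was 0.0074 and 52.0% of genes stood higher. The 95% interval of a probe set had a median half-width of 0.31, and for 93.0% of probe sets with 1 symbol it lay within 1 log2 unit, a 2-fold change, on either side of no difference. Unless another comparison is named, differences below are log2 values, CALM-AF10 minus MIG, of genes with a symbol. Each has an adjusted p of 0.526 or more by limma, so they describe these arrays.

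The genes that stood highest with CALM-AF10 came from a few kinds. Among the 15 largest differences without overlap, 6 were small nucleolar RNA genes, with Snord42a, Snord37 and Snord52 between 1.03 and 1.16. The others included Cd27, which encodes a receptor of the tumour necrosis factor family on lymphocytes and multipotent progenitors, the microRNA gene Mir505, and Slc19a1, the reduced folate carrier. On the lower side stood the kallikrein gene Klk1b11 (-2.64), the glypican gene Gpc3, and the glycolysis genes Eno2, Aldoc and Slc16a3. The macrophage antigen genes Adgre1 (F4/80) and Cd180 were also among the 15 lowest.

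**Figure D1:**
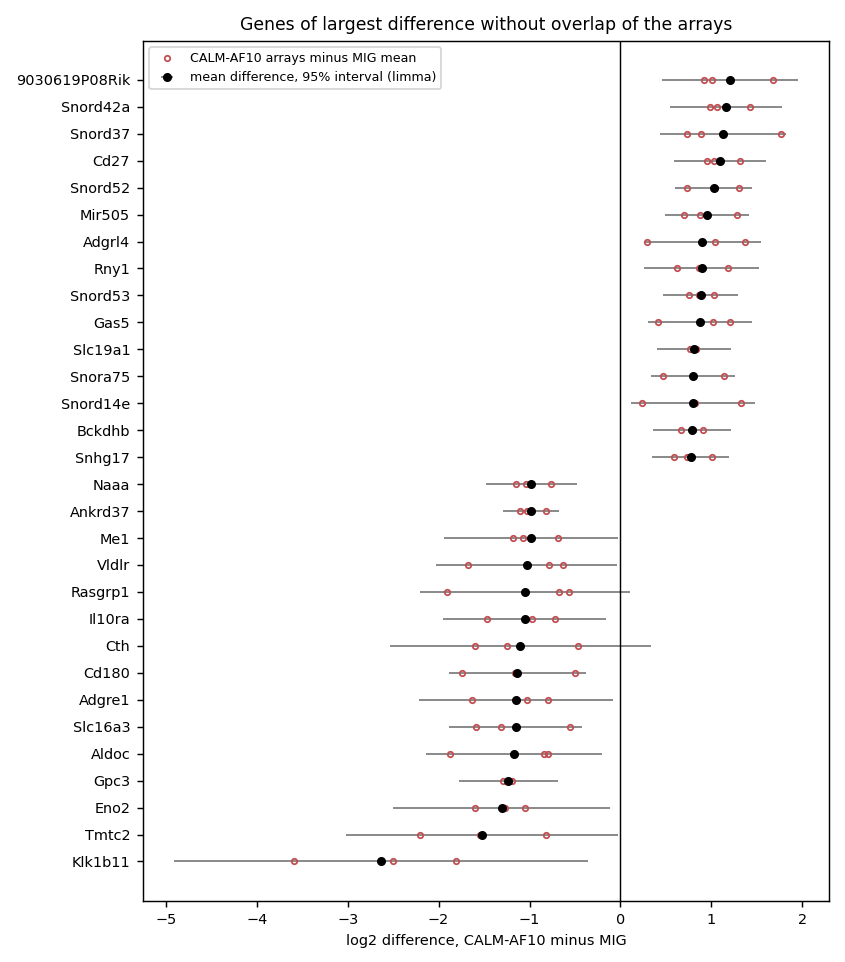
Log2 difference between CALM-AF10 and MIG for the 15 genes with the largest differences in each direction among genes whose arrays did not overlap; filled points are means with limma 95% intervals and open points are the 3 CALM-AF10 arrays minus the MIG mean. The higher genes reach 1.21 (9030619P08Rik), and Klk1b11 stands apart on the lower side with a wide interval.

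Cd27 had the largest rise of the 16 measured progenitor surface markers. It read 8.50, 8.03 and 7.65 in the MIG arrays and 9.38, 9.01 and 9.09 in the CALM-AF10 arrays. Every CALM-AF10 array lay above every MIG array, a difference of 1.10 (SE 0.23, n = 3 against 3), or 2.14-fold. The uncharacterised gene 9030619P08Rik had the largest positive difference among the genes without overlap at or above the median level, from 7.47 ± 0.66 to 8.68 ± 0.42 (SD, n = 3). Adgrl4, an adhesion receptor known from endothelium, stood higher by 0.90, with CALM-AF10 replicate 2 (8.47) closest to the MIG arrays (7.98 to 8.34). Bckdhb, a subunit of branched-chain ketoacid dehydrogenase, stood higher by 0.79 ± 0.20 (SE).

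On the higher side, the genes with the strongest statistics were not among the 15 largest differences. Zscan25, a zinc finger gene, read 7.74, 7.76 and 7.70 with MIG and 8.28, 8.17 and 8.24 with CALM-AF10. The groups were tight and apart, by 0.49 (SE 0.08), 1.41-fold. All 3 probe sets of Rangrf, a cofactor of the nuclear transport GTPase Ran, were among the 5 highest statistics, with differences of 0.76, 0.76 and 0.58. Psmg4, a proteasome assembly chaperone, stood higher by 0.63 (SE 0.11).

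On the lower side, Gpc3, a proteoglycan gene of the cell surface, read 8.26, 7.94 and 8.77 with MIG and 7.04, 7.13 and 7.10 with CALM-AF10. Its CALM-AF10 arrays were close together and all lay below MIG, a difference of -1.24 (SE 0.25), 2.35-fold. Igfbp7, a secreted growth factor binding protein, was as tight, at 11.41 ± 0.12 with MIG and 10.54 ± 0.05 with CALM-AF10 (SD, n = 3). Chn2, a GTPase-activating protein for Rac, differed by -0.81. Of 4 probe sets of Syne2, a nuclear envelope protein gene, 1 differed by -0.89 and the others by -0.51 to -0.39. Klk1b11 had the largest difference and one of the widest spreads: 7.67, 10.29 and 8.75 with MIG against 6.40, 5.31 and 7.10. Its interval ran from -4.91 to -0.36. Naaa, a lysosomal amidase gene, was tighter (10.01, 10.72 and 10.43 against 9.35, 9.63 and 9.23). The rest of the 15 lowest, Tmtc2 (-1.52), Cth (-1.10), Il10ra (-1.05), Rasgrp1 (-1.05), Vldlr (-1.03) and Me1 (-0.98), had standard errors of 0.41 to 0.68.

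Small nucleolar RNAs with probe sets of their own stood higher. Most of these short nuclear RNAs sit in the introns of other genes and are cut out of the spliced introns. Many guide methylation (C/D box, Snord genes) or pseudouridine formation (H/ACA box, Snora genes) on ribosomal RNA. Of those measured here, Snord118 lies inside no other annotated gene. All 51 snoRNA genes with a probe set of 1 symbol had a positive difference, against 52.0% of all genes, with a median of 0.52 and quartiles of 0.36 and 0.62. In 27 of the 51 the groups did not overlap, against 5.94% of all genes, and 29 had an unadjusted p under 0.05, against 3.48%. The C/D and H/ACA classes were alike: medians of 0.52 for both, with 17 of 31 and 10 of 20 genes without overlap.

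Snord42a, inside the ribosomal protein gene Rpl23a, read 7.46, 6.55 and 7.49 with MIG and 8.22, 8.16 and 8.59 with CALM-AF10. Snord52 read 7.16, 6.61 and 6.75 against 8.14, 7.58 and 7.88, a difference of 1.03 (SE 0.19). In both, every fusion array lay above every vector array. Snord53, inside Wdr43, was bright and tight, at 10.35 ± 0.04 with MIG and 11.23 ± 0.14 with CALM-AF10 (SD, n = 3). The smallest differences in the class were those of Snord8 (0.066), Snord73a (0.13), Snord38a (0.15) and Snord104 (0.15), all with overlapping groups.

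The genes that contain the snoRNAs did not stand higher to the same degree. In the RefSeq annotation (GRCm38.p6), 29 of the 51 snoRNAs lie inside a gene that has a probe set of its own, 25 different genes in all. The median difference of those 25 genes was 0.050, with 16 higher and 9 lower, and 3 higher and 1 lower without overlap. In 27 of the 29 pairs the snoRNA difference was the larger. Several hosts were much brighter than their snoRNAs. With MIG, Rpl10 averaged 13.56, Tpt1 13.19 and Eef2 13.13, where the highest value of all is 14.27. Snora70, Snora31 and Snord37 inside them averaged 9.22, 7.72 and 6.42. How level bears on these differences was not tested. Snord87 lies inside both Mcmdc2 and Snhg6, and the dim Mcmdc2 (5.02 with MIG) was used. Rpl27a, which contains Snora3, differed by -0.17 while Snora3 stood higher by 0.70, and Rpl23a differed by -0.0043 against 1.16 for Snord42a and 0.50 for Snord42b. Ipo7, an importin gene, differed by -0.095 while Snora23 inside it stood 0.59 higher. Gas5, a host that codes for no protein, had the largest difference among these hosts. Its brightest probe set stood higher by 0.55 with overlap and its other 3 by 0.64, 0.67 and 0.88, and Snord47 inside it by 0.73. The annotation assigns a further 41 probe sets to a snoRNA together with other symbols, and 16 of them stood higher. The 24 that name Snord115 or Snord116, repeated snoRNA genes of an imprinted cluster known for expression in brain, were dim (MIG means of 5.82 to 6.03) and stood lower in all 24 cases, each overlapping, with a median of -0.20. They held 7 different sets of values. The other 17 were higher in 16 cases, with a median of 0.49. The probe sets of Snora30 held identical values, as did those of Snord118, and each was counted once. Without MIG replicate 2, 32 of the 51 snoRNAs did not overlap, against 12.4% of all genes.

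**Figure D2:**
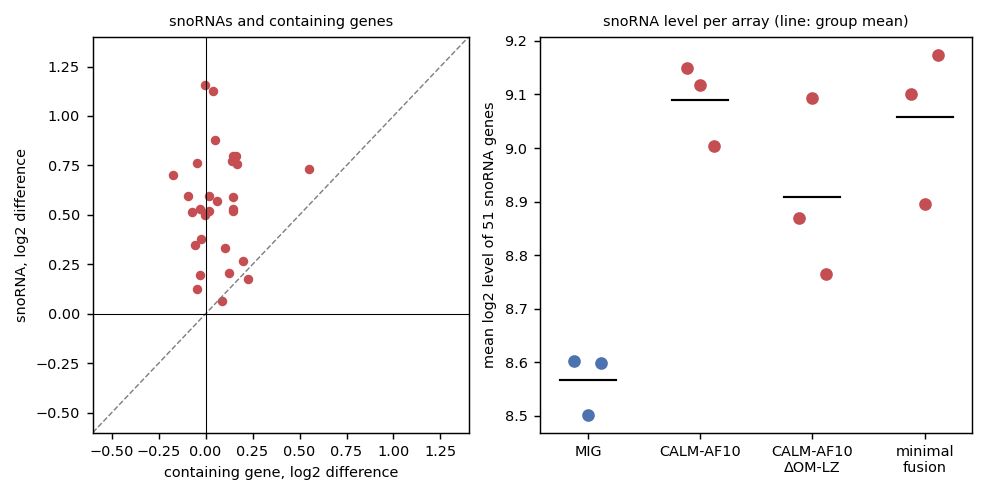
Left, log2 difference (CALM-AF10 minus MIG) of 29 snoRNA genes against that of the gene that contains each; the dashed line marks equal differences, and 27 points lie above it. Right, mean log2 level of the 51 snoRNA genes in each of the 12 arrays with group means; the 3 MIG arrays (8.50 to 8.60) lie below the 3 CALM-AF10 arrays (9.003 to 9.15) and below the other fusion arrays.

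Other short noncoding RNAs, chosen after their values were seen, varied. Rn7sk, the RNA that holds the elongation factor P-TEFb, differed by 0.066 (SE 0.077), the telomerase RNA Terc by 0.017 (SE 0.11), and Rmrp by 0.083 (SE 0.13). Rpph1, the RNA of RNase P, stood higher by 0.32 without overlap, and Rny1, a Y RNA, by 0.89 (5.91, 6.27 and 7.02 against 7.27, 7.03 and 7.58), while Rny3 differed by 0.15. The snoRNA host Snhg17 gave unlike values by probe set: 0.77, 0.76 and, for the brightest, 0.019.

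Genes for making ribosomes also stood higher, by less. On a list of ribosome and nucleotide synthesis genes, 24 of 25 were higher, 8 of them without overlap, with a median of 0.24. The shares of all genes without overlap were 5.94% higher and 3.27% lower. Rrp9, a protein of the U3 snoRNA particle, read 9.14, 8.75 and 8.66 with MIG and 9.38, 9.66 and 9.25 with CALM-AF10. Polr1b, a subunit of RNA polymerase I, stood higher by 0.50 (SE 0.15) with no overlap, as did Fbl and Npm1, nucleolar proteins, while Nop58, a core protein of C/D box particles, differed by -0.082. Of the mitochondrial ribosomal protein genes 69 of 77 were higher, 13 without overlap, with a median of 0.17. For ribosomal protein genes the median was 0.067, with 21 of 67 higher and 3 lower without overlap. Proteasome genes (41 of 49 higher, median 0.17) and subunits of NADH dehydrogenase (33 of 43, median 0.13) had similar small shifts. The ribosome synthesis median was 0.14 without MIG replicate 3 and 0.38 without MIG replicate 1.

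Genes that answer to low oxygen stood lower. Cells short of oxygen stabilise HIF1 alpha, which with its partner binds the letters ACGTG or GCGTG near genes for glycolysis, iron and oxygen use, matrix enzymes and mitochondrial clearance. On a list of 25 such genes outside glycolysis, 23 were lower with CALM-AF10, the median difference was -0.54 with quartiles of -0.87 and -0.35, and 16 had an unadjusted p under 0.05 in that direction, against 1.65% of all genes. The groups did not overlap for 8 of them, against 3.27% of all genes. The 2 that stood higher were Higd1a (0.31) and Car9 (0.063), both overlapping.

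Ankrd37, a HIF1 target of unsettled function, had the smallest p of all probe sets with a symbol. It read 7.77, 7.44 and 7.86 with MIG and 6.66, 6.87 and 6.59 with CALM-AF10, a difference of -0.98 (SE 0.14, 1.98-fold; adjusted p 0.526, limma). P4ha1, a prolyl hydroxylase of collagen, read 10.98, 10.35 and 11.23 against 9.91, 10.15 and 9.81. In both genes the fusion arrays lay wholly below the vector arrays, and MIG replicate 2 was the lowest vector array. Ndrg1 (-0.94), the secreted glycoprotein gene Stc2 (-0.93), the nuclear lamina binding gene Narf (-0.49) and the mitophagy receptor gene Bnip3l (-0.20) stood lower, all without overlap. Bnip3 (10.12 to 11.57 with MIG, 9.95 to 10.63 with CALM-AF10) and the oxygen sensor gene Egln3 (10.81 to 11.95 against 10.30 to 11.10) overlapped at MIG replicate 2, the lowest vector array in both. Without that array 18 of the 25 low oxygen genes did not overlap, against 6.29% of all genes, and the median was -0.65.

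The genes of glucose uptake and glycolysis went the same way with more spread. Of 21 genes 17 were lower, and the median was -0.36. At an unadjusted p under 0.05 by limma 8 were lower, against 1.65% of all genes. Without overlap 5 were lower, against 3.27% of all genes. Slc16a3, the exporter of lactate, read 11.11, 10.17 and 10.79 with MIG and 9.38, 10.13 and 9.10 with CALM-AF10, a difference of -1.15 (SE 0.33, 2.22-fold). Pgk1, phosphoglycerate kinase, read 12.66, 12.29 and 12.69 against 11.84, 12.27 and 11.73. In both, CALM-AF10 replicate 2 came close to MIG replicate 2 and the other arrays stood well apart. Aldoc (-1.17), Eno2 (-1.31) and the glucose transporter gene Slc2a3 (-0.95) made up the rest without overlap, and for Eno2 MIG replicate 3 stood apart (9.31 against 7.21 and 6.86). The abundant Ldha, lactate dehydrogenase, differed by -0.13. The glycolysis median was -0.60 without MIG replicate 2 and -0.24 without MIG replicate 1. Without MIG replicate 2, 13 of the 21 genes lay lower without overlap, against 6.29% of all genes.

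**Figure D3:**
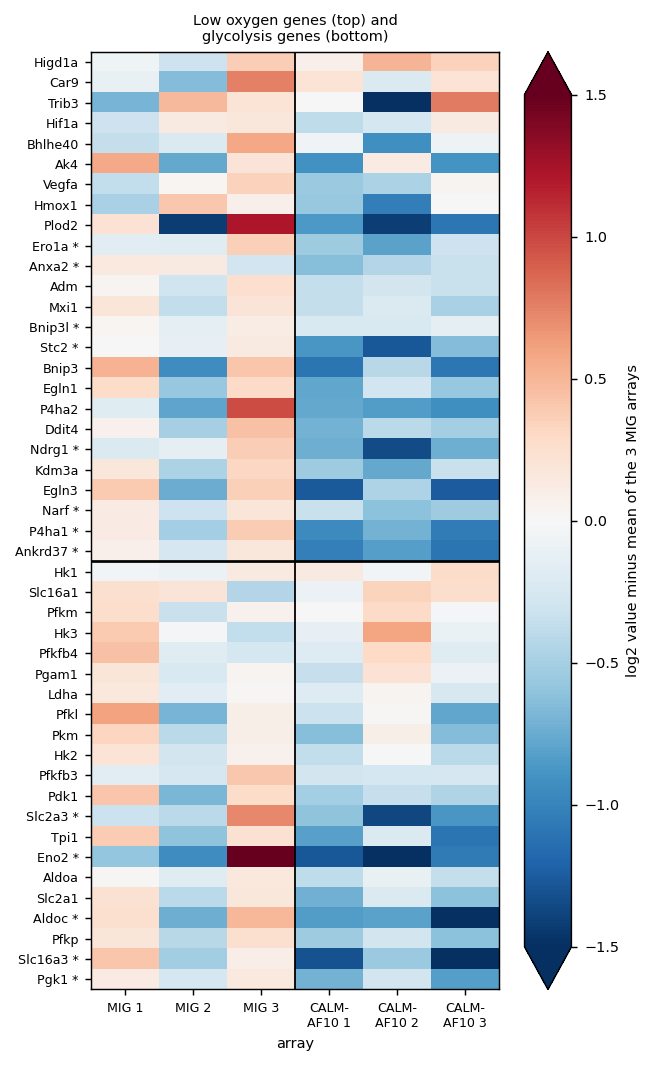
Log2 value of each low oxygen gene (top block) and glycolysis gene (bottom block) in the 6 arrays, minus the mean of the 3 MIG arrays, with colours saturated beyond 1.5 log2 units either way; asterisks mark genes whose groups do not overlap. Most rows are blue in the 3 CALM-AF10 columns, and MIG 2 is paler or bluer than MIG 1 and MIG 3 in many rows.

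The promoters of these genes are shown because most of them stood lower and the factor's core letters are known. The motif ACGTG was searched on both strands, so ACGTG and CACGT both count, in the 250 bases before each annotated start (RefSeq, GRCm38.p6). It was present for 14 of 20 low oxygen genes with an entry (70%) and 12 of 20 glycolysis genes (60%), against 20.9% of 15614 measured genes with an entry. Counting GCGTG or its reverse CACGC as well, all 20 low oxygen genes and 18 of the 20 glycolysis genes held a match, against 49.9% of measured genes. In windows made up of 60% or more G and C the shares over measured genes were 25.1% for ACGTG and 67.0% for either. A match is a description of the letters and not evidence of binding. Both lists hold genes of kinds that this factor is known to bind near. A high share therefore follows from that choice and does not bear on CALM-AF10. The windows numbered 28 for the 20 low oxygen genes and 31 for the 20 glycolysis genes, against 19177 for the 15614 measured genes. The 3 genes of the low oxygen list with the lowest statistics and an entry follow, 5′ to 3′ on the gene's strand, with ACGTG or CACGT in capitals.
Ankrd37 (chr8:45999851-46000100, minus strand): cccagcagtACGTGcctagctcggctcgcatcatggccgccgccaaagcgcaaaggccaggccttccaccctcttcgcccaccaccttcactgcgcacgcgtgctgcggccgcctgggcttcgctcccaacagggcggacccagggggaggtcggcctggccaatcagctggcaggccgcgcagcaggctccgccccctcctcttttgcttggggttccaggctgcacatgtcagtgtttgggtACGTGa
P4ha1 (chr10:59323046-59323295, plus strand): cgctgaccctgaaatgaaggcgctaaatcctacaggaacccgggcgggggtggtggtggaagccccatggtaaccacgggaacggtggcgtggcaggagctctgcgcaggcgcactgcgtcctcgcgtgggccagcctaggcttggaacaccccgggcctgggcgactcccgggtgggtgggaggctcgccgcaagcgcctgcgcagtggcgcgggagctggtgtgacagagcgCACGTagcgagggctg
Narf (chr11:121236986-121237235, plus strand): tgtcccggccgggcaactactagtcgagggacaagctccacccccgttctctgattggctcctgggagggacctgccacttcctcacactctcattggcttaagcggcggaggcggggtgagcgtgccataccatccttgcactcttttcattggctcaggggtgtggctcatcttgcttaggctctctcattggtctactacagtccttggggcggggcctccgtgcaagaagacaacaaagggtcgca
Ankrd37 held 2 matches, the nearer beginning 6 bases before the start, P4ha1 held 1 and Narf none of these letters.

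The HOXA genes differed little and in 1 direction. All 10 measured genes stood higher with CALM-AF10, with a median of 0.23, and 4 of them, Hoxa3, Hoxa6, Hoxa7 and Hoxa9, did so without overlap, against 5.94% of all genes. Hoxa9, the HOXA gene most studied in myeloid leukaemia, read 8.74, 8.44 and 8.81 with MIG and 9.03, 8.94 and 8.95 with CALM-AF10. The fusion arrays were tight and above all vector arrays, by 0.30 (SE 0.11), 1.24-fold. Hoxa6 read 7.35, 7.04 and 7.18 against 7.90, 7.46 and 7.77, a difference of 0.52 (SE 0.16). Hoxa7 had a like difference of 0.53 with a wider spread (8.47 to 9.25 with CALM-AF10), and Hoxa3 stood higher by 0.36. Hoxa5 (0.26), Hoxa13 (0.21), Hoxa4 (0.17), Hoxa2 (0.11), Hoxa11 (0.062) and Hoxa10 (0.011, 95% interval -0.32 to 0.34) overlapped. In CALM-AF10 replicate 2 Hoxa5 read 6.34, below every MIG array (6.57 to 6.68), while the other fusion arrays read 7.17 and 7.10.

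**Figure D4:**
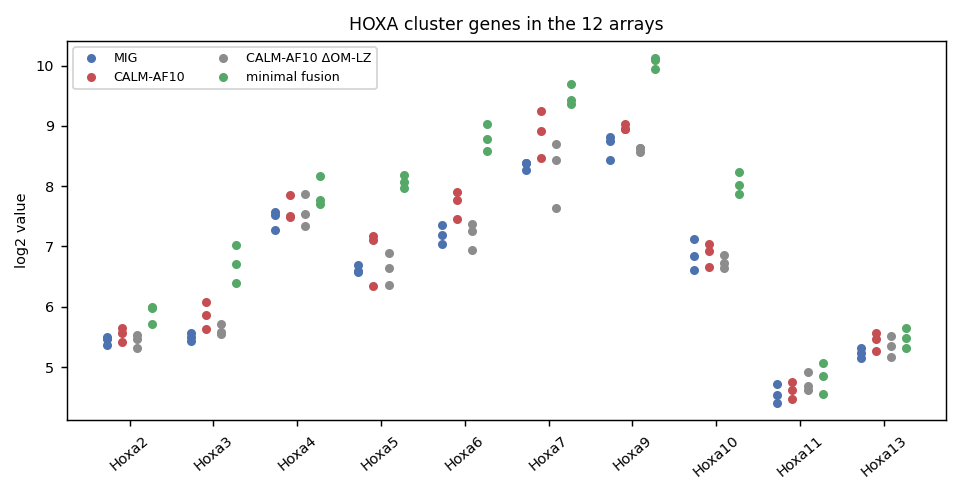
Log2 value of the 10 measured HOXA genes in the 12 arrays, coloured by construct. The CALM-AF10 arrays lie just above the MIG arrays for Hoxa3, Hoxa6, Hoxa7 and Hoxa9, and the minimal fusion arrays lie above both for Hoxa2, Hoxa3, Hoxa5, Hoxa6, Hoxa7, Hoxa9 and Hoxa10.

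The partners of HOX proteins and of AF10 were mixed. Of 8 MEIS, PBX and PREP cofactor genes 2 stood higher, none without overlap, with a median of -0.18, which was -0.021 without MIG replicate 3 and -0.039 without CALM-AF10 replicate 2. Meis1, which binds DNA beside HOXA9, read 10.03, 10.13 and 11.03 with MIG and 10.69, 9.31 and 10.11 with CALM-AF10, so the spread within each group exceeded the difference of -0.36. Pbx4 (0.12), Meis3 (0.083), Pknox2 (-0.22), Pbx3 (-0.14), Pknox1 (-0.14), Pbx2 (-0.21) and Meis2 (-0.28) completed the list. Of 16 genes of the DOT1L and AF10 complexes 10 stood higher, with a median of 0.049. It was 0.00086 without CALM-AF10 replicate 3, 0.076 and 0.074 without its replicates 1 and 2, and 0.017 under quantile normalization. Only Mllt1, which encodes the elongation cofactor ENL, stood higher without overlap, by 0.22 (SE 0.09). That share of the list, 6.25%, was near the 5.94% of all genes. Dot1l itself differed by 0.17 (95% interval -0.12 to 0.45) and Mllt10, the mouse gene for AF10, by -0.16 (-0.43 to 0.10). No source used here says whether its probes read the transduced fusion. Mllt3 (AF9) differed by -0.57, and MIG replicate 3 stood apart (9.85 against 8.51 and 8.38). The others were Kmt2a (0.18), Aff3 (0.48), Cdk9 (0.061), Ccnt1 (0.098), Men1 (0.10), Mllt6 (0.058), Aff1 (0.041), Ell (0.017), Trrap (-0.0086), Psip1 (-0.020), Ell2 (-0.12) and Aff4 (-0.37), all overlapping.

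Progenitor genes were mixed. Sox4, a transcription factor of early progenitors, read 8.06, 7.86 and 7.88 with MIG and 8.90, 8.26 and 8.27 with CALM-AF10, higher by 0.54 without overlap. Etv6 (0.23), the myeloid factor Cebpa (0.32) and Nfe2 (0.38) also stood higher without overlap, and Myc by 0.29 with overlap. Flt3, the receptor of lympho-myeloid progenitors, read 8.23 and 8.62 in CALM-AF10 replicates 1 and 3 and 6.86 in replicate 2, below all MIG arrays (6.90 to 7.17). Thy1 (-0.48) and Fli1 (-0.24) stood lower without overlap. Over the 16 progenitor surface markers the median was -0.085, and over 27 stem and progenitor transcription factors it was 0.082. Of 26 myeloid transcription factors 10 stood higher and 16 lower, with a median of -0.021. In that list 2 were higher without overlap, against 5.94% of all genes, and 0 lower. Aen, a nuclease gene induced by p53, stood higher by 0.49 (SE 0.12) without overlap, while the 29 p53 target genes had a median of -0.024.

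MicroRNA genes lay near the background as a group. The array reads hairpin precursors and their host transcripts, not mature microRNAs. Of 287 hairpin genes 176 stood higher, 18 without overlap, and 111 lower, 6 without overlap, with a median of 0.023. The shares over all genes were 5.94% and 3.27%. Mir505 was the largest: 8.60, 8.29 and 7.93 with MIG against 8.97, 9.56 and 9.15, higher by 0.96 (SE 0.21) with the groups apart. The host RNA of the miR-17-92 cluster, Mir17hg, read 6.42, 6.31 and 6.27 against 6.98, 6.74 and 7.07, higher by 0.60 without overlap. Its hairpins Mir19b-1 (0.66), Mir20a (0.55), Mir19a (0.53), Mir18 (0.52) and Mir17 (0.27) stood higher with overlap, since CALM-AF10 replicate 2 was low in each. Except for Mir18 (7.19), their MIG means of 4.65 to 6.16 lay below the median of all values, 6.62. No value is given here for Mir92-1, the remaining hairpin of the cluster. Mir15b (-0.47) and Mir23a (-0.39) stood lower without overlap. Mir196b, which lies in the HOXA cluster, differed by 0.013 (SE 0.22).

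The mature sequences of these genes (RefSeq, GRCm38.p6) are shown with the seed, bases 2 to 8, in capitals, to show which of them share a seed.
mmu-miR-505-3p (chrX:60394416-60394437, minus strand): cGUCAACAcuugcugguuuucu
mmu-miR-17-5p (chr14:115043684-115043706, plus strand): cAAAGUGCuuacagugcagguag
mmu-miR-20a-5p (chr14:115044183-115044205, plus strand): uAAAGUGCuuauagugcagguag
mmu-miR-18a-5p (chr14:115043867-115043889, plus strand): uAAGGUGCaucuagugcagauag
mmu-miR-19a-3p (chr14:115044048-115044070, plus strand): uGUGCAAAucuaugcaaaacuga
mmu-miR-19b-3p (chr14:115044358-115044380, plus strand): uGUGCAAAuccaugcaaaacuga
mmu-miR-196b-5p (chr6:52230129-52230150, minus strand): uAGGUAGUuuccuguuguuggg
The seed of miR-17-5p is also that of miR-20a-5p, and miR-19a-3p and miR-19b-3p share another, while miR-18a-5p, miR-505-3p and miR-196b-5p each have their own among those shown.

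Lineage genes leaned lower, and the vector arrays were widely spread. In a bulk culture fewer cells of a lineage and less RNA per cell cannot be told apart. Of 22 megakaryocyte and platelet genes 20 stood lower, with a median of -0.52. Only Mmrn1, a platelet alpha granule protein gene, did so without overlap (5.97, 7.49 and 7.77 against 5.62, 5.52 and 5.54). That share, 4.55%, was near the 3.27% of all genes. Ppbp, a platelet chemokine gene, read 9.41, 12.30 and 11.57 against 9.93, 7.76 and 9.24, so MIG replicate 1 lay inside the range of the fusion arrays. Of 25 mast cell and basophil genes 24 stood lower, but only 1, Rgs13, without overlap (4%, near the 3.27% of all genes). The median of this list was -0.48. That median was -0.066 without MIG replicate 3 and -0.21 without CALM-AF10 replicate 2, but -0.82 without MIG replicate 1 and -0.77 without CALM-AF10 replicate 1. MIG replicate 3 was the array in which these genes were highest: Ms4a2, a chain of the IgE receptor, read 11.55 there and 9.19 and 9.34 in the other vector arrays.

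Eosinophil granule genes were lower and dim. Prg2, the major basic protein, read 6.44, 6.89 and 7.84 with MIG and 5.89, 6.11 and 5.92 with CALM-AF10, and Epx, eosinophil peroxidase, read 6.49, 6.09 and 7.70 against 5.45, 5.66 and 5.56. With Rnase2a (-1.12) they made up the 3 of 11 eosinophil genes that lay lower without overlap, against 3.27% of all genes. The list's median was -0.25. It was -0.11 without MIG replicate 2, -0.16 without MIG replicate 3, and 0.17 with dim probe sets left out. Of 30 monocyte and macrophage genes 23 stood lower, 4 without overlap against 3.27% of all genes, with a median of -0.17. It was 0.082 without MIG replicate 2, in which this list was highest, -0.74 without MIG replicate 3, -0.074 without CALM-AF10 replicate 1 and -0.51 without CALM-AF10 replicate 3. Nos2, the inducible nitric oxide synthase, read 7.26, 6.91 and 6.84 against 5.99, 6.41 and 6.33, a difference of -0.76 (SE 0.16) with the groups apart, and the chemokine receptor gene Ccr2 differed by -0.73. Lyz2, lysozyme, and Csf1r, the receptor of macrophage colony-stimulating factor, overlapped, with differences of 0.13 and -0.18.

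Neutrophil granule genes varied widely between fusion arrays. Elane read 13.01, 12.40 and 12.36 with MIG and 10.06, 13.16 and 11.62 with CALM-AF10. The lowest and the highest value both came from fusion arrays. Over 13 primary granule genes the median was -0.074. Without overlap 1 of them stood higher, against 5.94% of all genes. Ctsc, the protease that activates granule enzymes, was the 1 that stood lower without overlap (-0.41), against 3.27% of all genes. Over 24 late neutrophil genes the median was -0.12.

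**Figure D5:**
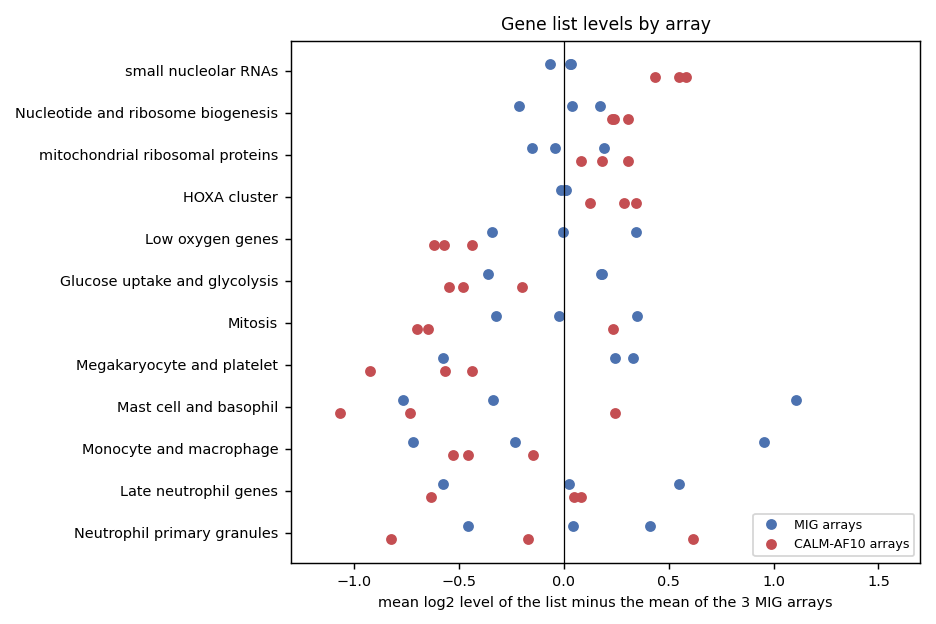
Mean log2 level of 12 gene lists in each MIG and CALM-AF10 array, minus the mean of the 3 MIG arrays. The snoRNA points of the groups are apart and the HOXA, ribosome synthesis and low oxygen points are apart by less, while the mast cell, monocyte and neutrophil points overlap widely.

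Mitosis genes stood lower in all 40 cases, yet only 1, the kinetochore gene Ndc80, did so without overlap. That share, 2.5%, was no higher than the 3.27% of all genes. The median was -0.36. The proliferation marker gene Mki67 read 11.77, 11.43 and 11.58 with MIG and 10.82, 11.45 and 10.84 with CALM-AF10. CALM-AF10 replicate 2 was thus at the vector level and the other fusion arrays below it. The 40 genes are read in the same cultures and are not independent. The median was -0.67 without CALM-AF10 replicate 2, -0.17 and -0.20 without its replicates 1 and 3, and -0.18 without MIG replicate 1. Without MIG replicate 2, 11 of the 40 did not overlap, against 6.29% of all genes. The 40 DNA replication genes had a median of -0.032.

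Other lists had smaller counts, to be read against 5.94% of all genes higher and 3.27% lower without overlap. Of 32 interferon response genes 3 were lower without overlap and 0 higher, with a median of -0.14. Of 25 Polycomb genes 3 were higher and 1 lower (median 0.067), and of 35 immediate early genes 3 were higher and 0 lower (0.067). Of 27 cholesterol synthesis genes 2 were lower (median 0.10), of 30 genes of the unfolded protein response 1 (-0.045), and of 18 apoptosis genes 2 (-0.011), with 0 higher in each list. Of 29 clathrin endocytosis genes 1 was higher and 2 lower (median -0.043). By gene family, 4 of 38 kinesins (median -0.11) and 5 of 48 serpins (-0.022) were lower without overlap.

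The widest spreads among the vector arrays included those of lineage genes. Tpsab1, a mast cell tryptase, ranged over 5.03 log2 units in MIG and 3.95 in CALM-AF10, and Mcpt4, Tpsb2 and Cma1, further mast cell proteases, over 4.06 to 4.77 in MIG. Gbp4, an interferon-induced GTPase, read 5.71, 6.41 and 9.98 in MIG and 5.48 to 6.27 in CALM-AF10. Wfdc17 and Vcan, expressed by monocytes, were highest in MIG replicate 2 and lowest in replicate 3, and Erv3, Pla2g7 and Cyp4a12a were highest in replicate 3.

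The OM-LZ deleted and minimal fusions were set beside these values, and all 3 comparisons with MIG share its arrays. The snoRNA median against MIG was 0.52 for CALM-AF10, 0.35 for CALM-AF10 ΔOM-LZ and 0.52 for the minimal fusion. For low oxygen genes the values were -0.54, -0.60 and -0.84. For the HOXA genes they were 0.23, 0.0077 and 1.16. For ribosome synthesis they were 0.24, -0.044 and 0.18, and for mitosis -0.36, -0.33 and 0.037.

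Tested directly, the minimal fusion exceeded CALM-AF10 at 1 probe set of 23410 (0.00427%), that of Hoxa9. It was higher by 1.08 (SE 0.11, 95% interval 0.85 to 1.32; adjusted p 0.0161, limma), 9.94 to 10.13 in the minimal fusion arrays against 8.94 to 9.03. Hoxa10 (1.17, adjusted p 0.113), Hoxa6 (1.09) and Hoxa5 (1.21) missed the threshold, with lower bounds of their 95% intervals at 0.84, 0.73 and 0.76. Of the 10 HOXA genes 7 were higher in the minimal fusion without overlap, against 2.14% of all genes. Cd27 was higher by 0.83 (95% interval 0.33 to 1.34) without passing. The Hoxa9 call was lost on leaving out any of the 3 CALM-AF10 or 3 minimal fusion arrays, or CALM-AF10 ΔOM-LZ replicate 3. It was also lost with only the 6 arrays compared and with the replicate number as a block, where 0 probe sets were called over 12 arrays and 1, Tph1, over the 6.

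CALM-AF10 and CALM-AF10 ΔOM-LZ did not differ at any probe set by limma (0 of 23410, 0%; 528 with unadjusted p under 0.05). Here arrays of the same replicate number deviated together, and with the replicate number as a block in a fit of these 6 arrays 1 probe set was called and 3330 had an unadjusted p under 0.05. The call was Prss34, a basophil and mast cell protease, lower with CALM-AF10, a difference of -1.66 (SE 0.071; adjusted p 0.0310, limma with the replicate block). It read 9.68, 8.999 and 8.66 with CALM-AF10 and 11.37, 10.70 and 10.24 with the deletion, lower in all 3 pairs. Ribosome synthesis genes stood higher with the intact OM-LZ, 17 of 25 without overlap, against 4.81% of all genes, and Hoxa6, Hoxa9 and Cd27 by 0.52, 0.36 and 0.90, while 18 of 24 late neutrophil genes were lower in all 3 pairs, against 15.8% of all genes.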

How the data were processed

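Labelled RNA of sorted GFP+ marrow cells was hybridised to Affymetrix whole-transcript arrays, 1 per sample. Each deposited number is a log2 intensity for 1 probe set. Per the submitters' processing notes the authors used Expression Console, the Affymetrix program; its version, its background and normalization steps and the array's genome build were not given in the sources used here. Values ran from 2.88 to 14.27, and nothing was renormalized. Probe sets were named from the platform annotation: 21789 had 1 symbol (21698 found in the RefSeq table by Entrez ID), 1621 several and 12146 none. Precision is limited by having 3 arrays in a group.

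limma 3.58.1 under R 4.3.3 fitted 1 mean per construct on all 12 arrays, with eBayes and Benjamini-Hochberg adjustment over the 23410 probe sets with a symbol, threshold 0.05, two-sided. Lists and families used the brightest probe set of each gene, and a difference "without overlap" has all 3 arrays of one group beyond all 3 of the other. Named were the 15 largest differences each way without overlap among probe sets at or above the median level, the 5 highest and lowest statistics, all HOXA, HOX cofactor and DOT1L and AF10 genes, up to 4 members at each end of other lists, cell type markers, chosen single genes (Cd27, Sox4, Epx, Prg2, Nos2, Aen, Mir196b) and the 10 widest spreads in MIG. Other genes the text names, such as snoRNA hosts, were chosen after their values were seen. The members and lists were chosen with earlier results of these data known. Alternatives were other scalings, filters, array sets, eBayes settings, the replicate number as a block, and each array left out. The code was tested on simulated data.

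Replicate numbers did not pair MIG with CALM-AF10: deviations from the group means correlated at -0.47, -0.11 and 0.15. They did for CALM-AF10 and CALM-AF10 ΔOM-LZ (0.73, 0.72 and 0.70). Only arrays of the same number were compared in this way, so a pairing of MIG and CALM-AF10 arrays across numbers was not tested.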

Additional observations from a re-analysis of the deposited data

Results flagged for a closer look

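The Hoxa9 effect differed between constructs by a direct test: the minimal fusion minus CALM-AF10 difference, which equals the difference of their effects against MIG, was 1.08 (adjusted p 0.0161, limma). The call was lost with the replicate block, with only the 6 arrays compared, and on leaving out any of the CALM-AF10 or minimal fusion arrays or CALM-AF10 ΔOM-LZ replicate 3.

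Among 12146 probe sets that the annotation gives no symbol, tested apart, 1 was called. Probe set 10468877 read 9.05, 8.94 and 9.43 with MIG and 4.43, 4.50 and 4.57 with CALM-AF10, a difference of -4.64 (SE 0.15; adjusted p 1.85e-07, limma). The 6 arrays of the other fusions read 4.45 to 5.00, so all 9 fusion arrays lay below all vector arrays. It has no gene name here. At an unadjusted p under 0.05 these probe sets were more often higher (700) than lower (194).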

How the results depend on the processing

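The count of probe sets called between CALM-AF10 and MIG stayed at 0 in every alternative except 2: it was 1 with every probe set of the file tested (the unnamed probe set above), and 0 to 1 on leaving out single arrays (1 without MIG replicate 2, Mgarp). With the replicate block it was 0, both in a fit of all 12 arrays and of these 6, with smallest adjusted p-values of 0.499 and 0.994; the numbers did not pair these arrays. For CALM-AF10 against CALM-AF10 ΔOM-LZ the count was 0 in all alternatives but the replicate block on the 6 arrays (1). For the minimal fusion against CALM-AF10 it was 3 with every probe set tested, 0 with only the 6 arrays, 0 with the replicate block on all 12 arrays, and 0 to 1 on leaving out single arrays; the replicate block on the 6 arrays called 1, Tph1 and not Hoxa9. The snoRNA median ran from 0.46 to 0.56 and the HOXA median from 0.21 to 0.25 on leaving out arrays. Those of low oxygen genes ran from -0.65 to -0.39 and of glycolysis genes from -0.60 to -0.24. The eosinophil median reversed to 0.17 with dim probe sets left out, where fewer genes remain, and the monocyte median to 0.082 without MIG replicate 2 (-0.74 to 0.082 over the arrays left out). The counts of genes without overlap with MIG replicate 2 left out were chosen after seeing the data. The cause of the other changes was not tested. The median difference over all genes was -0.0045 under quantile normalization and -0.0085 with arrays centred on their medians. Signal over background and depth are not given for these values, so dim genes are described by level only.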
